A study of Mus musculus with 2 samples.

Results

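Armc12 and 9 further genes of the sperm mitochondrial sheath were followed in mouse testis RNA after exposure to bisphenol A (BPA), an estrogen-mimicking chemical used to make plastics. The 10 genes, Armc12, Tbc1d21, Spata19, Gk2, Gykl1, Vdac2, Vdac3, Mfn1, Mfn2 and Pld6, were taken by name from 44002 rows of the deposited table, and each matched 1 Entrez gene ID. The set was chosen by the fall of Armc12 between the control and BPA values of this table, together with genes known from its pathway, so the Armc12 difference is given as a description. Both groups consist of testis tissue from balb/c mice, taken on postnatal day 45. The control library carries no treatment in its labels and the other carries BPA exposure, with dose, route and duration not given in the sources used here. In each group 3 samples were mixed into 1 library, so no spread within a group could be measured. No difference below has a replicate check, and no test between the conditions was run here.

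The mitochondrial sheath is the helix of mitochondria wound around the flagellum in the sperm midpiece. It forms late in spermatid development, when round mitochondria gather along the outer dense fibres, line up, elongate and interlock. ARMC12 is an armadillo repeat protein of spermatid mitochondria that is needed for this coiling, and male mice without it are infertile. Its reported binding partners include TBC1D21, GK2, the outer membrane channels VDAC2 and VDAC3, and the cristae protein MIC60, which the gene Immt encodes.

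Armc12 (gene ID 67645) lies on chromosome 17 of GRCm38, the build that mm10 names, from 28530861 to 28538975 on the plus strand. GENCODE lists 5 transcripts for it, with up to 1098 coding bases in 6 coding exons. The stretch below is the opening of its coding sequence, from the reference genome at chr17:28530884-28531033 (plus strand, inside the exon that holds the start codon). It is shown because it belongs to the member that differed, and the capitals mark the start codon.
Armc12: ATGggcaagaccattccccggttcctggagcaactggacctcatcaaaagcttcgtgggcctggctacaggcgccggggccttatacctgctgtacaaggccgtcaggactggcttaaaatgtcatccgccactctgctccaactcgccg
Of 1732 distinct 50-base words in the Armc12 transcripts, 0 occurred in a transcript of another locus, and no exon of another GENCODE gene overlapped its exons. RefSeq places the span of the non-coding gene Gm41506, from 28528745 to 28533727, across the start of Armc12. Gm41506 stood at 1.03 CPM in the control library and 0.242 CPM in the BPA library, and its part in the Armc12 value was not tested.

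Gk2 and its autosomal relative Gykl1 resemble the X-linked glycerol kinase gene Gk, and shared sequence decides whether their reads can be told apart. Gk2 and Gk were identical at 80.9% of 1656 aligned coding bases, Gykl1 and Gk at 82.6% of 1647, and Gk2 and Gykl1 at 78.2% of 1640. The longest identical run was 76 bases between Gk2 and Gk and 33 bases between Gk2 and Gykl1. The stretches below show the 76-base run with 20 bases on each side, and the capitals mark the 7 bases that differ. The Gk2 stretch is chr5:97455693-97455808 on the minus strand of GRCm38, and that of Gk, which crosses 1 intron, lies within chrX:85712653-85713322 on the minus strand.
Gk2: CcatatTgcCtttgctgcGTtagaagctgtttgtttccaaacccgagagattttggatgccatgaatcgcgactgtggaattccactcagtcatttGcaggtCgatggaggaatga
Gk: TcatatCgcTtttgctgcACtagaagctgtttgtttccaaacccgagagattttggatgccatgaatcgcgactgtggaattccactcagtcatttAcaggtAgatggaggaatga
Only 27 of 1831 words of Gk2 (1.475%) occurred at another locus, and 0 of 1812 words of Gykl1 did. Vdac3 shared 12.8% of its words with other loci, with the pseudogene Vdac3-ps1 sharing more than any other gene, and Vdac2 shared 4.06%, which leaves part of their reads uncertain. The other members shared 0.885% or less. An exon of Comtd1, on the opposite strand, overlapped 25 bases of Vdac2.

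The 2 libraries were close in depth and held germ cell markers at like levels. On the reading that 1 step of the deposited values is 1 read, the full scale stood for 41801885 reads in the control library and 45377693 in the BPA library. Values are in CPM, the usual depth-scaled read count, and those under 1 CPM given below are not listed but were worked out from the deposited fold changes. The sheath forms in spermatids. None of 10 round and 12 elongating spermatid markers was 2-fold apart. Their summed level was 1282 and 23505 CPM in the control library, against 1264 and 24899 CPM in the BPA library. Spermatocyte and spermatogonium markers, 10 each, were also all within 2-fold. Of 10 Sertoli cell markers 9 lay above a log2 ratio of 0 by less than 2-fold, and 1, the homeobox gene Rhox8, was lower, at 9.04 CPM in control and 1.43 CPM in BPA, with a list median of 0.29. Of 8 Leydig cell markers 7 lay above 0 and none was 2-fold apart, with a median of 0.13. Among 8 epididymis markers, 6 were under 1 CPM in both libraries. The other 2 were Spink8, at 1.05 CPM in control and 0.529 CPM in BPA, and Cst8, at 169 and 175 CPM. Adipose tissue markers differed most. All 9 lay below 0 and 7 were 2-fold or more lower in the BPA library, against 1.95% of all genes. The other 2 differed little, Adipoq at 17.2 CPM in control and 15.4 CPM in BPA, and Plin1 at 4.88 and 4.47 CPM. The list summed to 98.7 CPM in control against 29.0 CPM in BPA, with none at 0. The part of the Sertoli, Leydig and adipose tissue differences in the values below was not tested. In such bulk tissue, fewer cells of a type and less RNA per cell cannot be told apart.

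Armc12 stood at 90.7 CPM in the control library, on 3790 reads, and at 3.15 CPM in the BPA library, on 143 reads. It was thus 28.8-fold lower in the BPA library, with a 95% counting interval of 24.3 to 34.2. All intervals here come from an exact binomial (Clopper-Pearson) calculation on the reads and cover counting error only, since several reads can stem from 1 molecule and samples were mixed. The log2 ratio of BPA over control was -4.80 with a pseudocount of 0.1 CPM added to both values. The set was chosen for this fall, so the rank of Armc12 is a description only. Its ratio was the 3rd lowest of 19389 genes with 1 CPM or more in the higher library. It was the 2nd lowest of 9979 genes whose mean reached 10 CPM. Of 4196 genes at 50 CPM or more in the control library, only Armc12 and Snrpc were under 5 CPM in the BPA library, a limit chosen after their values were seen.

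The authors deposited a log2 fold change of -4.85 for Armc12 and list it as lower. None of the 9 other members is in their lists. The q-values behind these lists rest on 1 library a group, so they do not measure the spread between libraries or animals. The program that gave them is not stated in the sources used here. Of 29279 genes with a q-value, the authors' lists hold 28 (0.0956%), 12 of them lower (0.041%).

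None of the 9 other genes came near the difference of Armc12. By a size rule of 2-fold at a floor of 1 CPM, 1 of 10 members, Armc12, was lower in the BPA library and 0 were higher. Over all genes at the floor 1.95% were lower and 1.32% higher by this rule. The rule on members was met only by the gene chosen for its difference. Each member stood above 50 CPM in the control library. Of 4196 genes at that level or more there, 5 (0.119%) were 2-fold lower, Armc12 among them. Not being 2-fold lower was thus usual at the members' levels. The median log2 ratio of the 9 others was -0.01, against 0.00406 over all 19389 genes, and they ranged from -0.13 for Vdac2 to 0.19 for Pld6. Of these 9 genes, 4 lay above 0 and 5 below. The largest was a 1.14-fold difference, while that of Armc12 was 28.8-fold. Together the 9 summed to 2806 CPM in the control library and 2737 CPM in the BPA library.

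**Figure D1:**
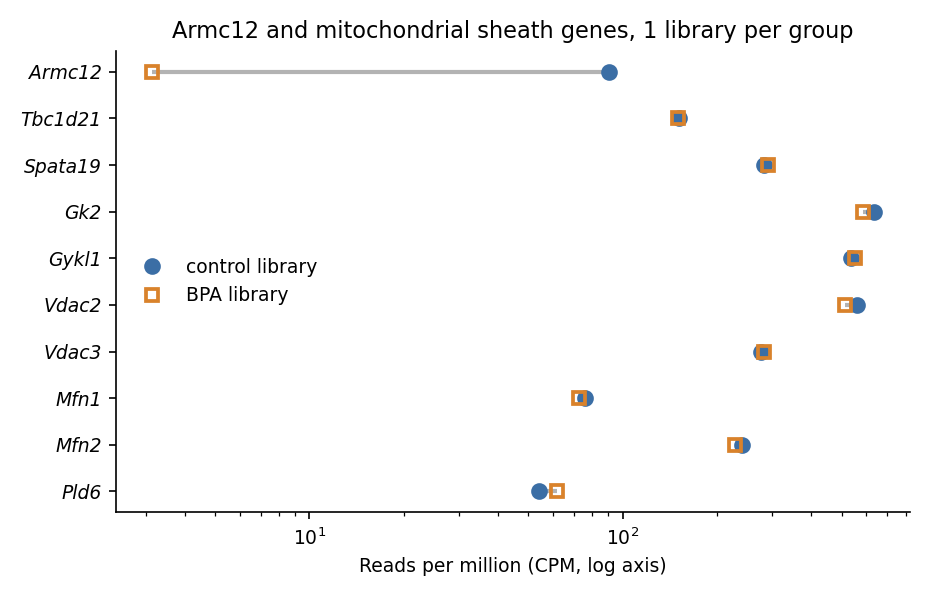
Levels of the 10 genes in CPM on a log axis, with a filled circle for the control library and an open square for the BPA library. Armc12 runs from 90.7 CPM in control to 3.15 CPM in BPA, while the circle and square of each other gene nearly coincide.

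Tbc1d21 encodes a testis protein of the RabGAP family that binds ARMC12 and is itself needed for a normal sheath. It stood at 151 CPM in the control library and 149.9 CPM in the BPA library, a difference of -0.81% (interval -4.16 to 2.66%). The interval includes 0, so the difference in Tbc1d21 lies within counting error at this depth. Set against Tbc1d21, Armc12 gave 37.5% of the reads of this pair in the control library (36.6 to 38.4%) and 2.06% in the BPA library (1.74 to 2.42%). Per kilobase of exon, Tbc1d21 was 1.99 times as abundant as Armc12 in the control library and 56.9 times in the BPA library. Both comparisons restate the fall for which Armc12 was chosen and add nothing on Tbc1d21 itself.

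Spata19 encodes a sperm mitochondrial protein linked to the adhesion of mitochondria in the sheath. It stood at 283 CPM in control and 291 CPM in BPA, 2.91% higher in the BPA library (0.377 to 5.50%). Armc12 reads were 24.3% of the reads of Armc12 and Spata19 in control, and 1.07% in BPA, which again restates the fall of Armc12. Neither of these midpiece proteins thus had a lower transcript level beyond a few percent.

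The glycerol kinase-like genes Gk2 and Gykl1 encode proteins of the spermatid outer mitochondrial membrane that are needed for the order of mitochondria in the sheath. Gk2 stood at 633 CPM in control and 585 CPM in BPA, 7.50% lower in the BPA library (5.91 to 9.07%). Gykl1 went the other way, from 534 CPM in control to 553 CPM in BPA, 3.51% higher (1.65 to 5.40%). Gk2 was the more abundant of the pair in both libraries, at 1.17 times the level of Gykl1 per kilobase in control (1.15 to 1.19) and 1.05 times in BPA (1.03 to 1.07). The X-linked Gk, expressed broadly in the body, was at 1.65 CPM in control and 1.08 CPM in BPA, far below both.

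Vdac2 and Vdac3 encode voltage-dependent anion channels, through which metabolites cross the outer mitochondrial membrane. Vdac2 stood at 559.9 CPM in control and 512 CPM in BPA, 8.49% lower in the BPA library (6.81 to 10.1%), and is the member after Armc12 with the lowest ratio. Vdac3 stood at 276 CPM in control and 283 CPM in BPA, 2.77% higher (0.214 to 5.40%). Per kilobase, Vdac2 was 2.31 times as abundant as Vdac3 in control and 2.05 times in BPA. The size of this ratio rests on the exon length used. Over the longest transcripts, the control levels were 275 for Vdac2 and 66.1 CPM per kilobase for Vdac3. The 2 channels that bind ARMC12 therefore lay on opposite sides of equality, both within 10% of it.

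Mfn1 and Mfn2 encode the mitofusins, GTPases that fuse outer mitochondrial membranes. Mfn1 stood at 76.0 CPM in control and 72.6 CPM in BPA, a difference of -4.58% with an interval from -9.14 to 0.220%. Mfn2 stood at 239.9 CPM in control and 228 CPM in BPA, 4.91% lower (2.26 to 7.50%). Their proportion hardly moved, with Mfn2 at 3.71 times Mfn1 per kilobase in control and 3.70 times in BPA, each inside the other's interval.

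Pld6 encodes a mitochondrial phospholipase D of the outer membrane, which makes phosphatidic acid and also serves piRNA production in germ cells. It stood at 54.1 CPM in control and 61.6 CPM in BPA, 13.9% higher in the BPA library (7.70 to 20.4%), the largest difference among the 9. Per kilobase it was at 0.541 times the level of Armc12 in the control library and at 17.7 times in the BPA library. This too restates the fall for which Armc12 was chosen.

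**Figure D2:**
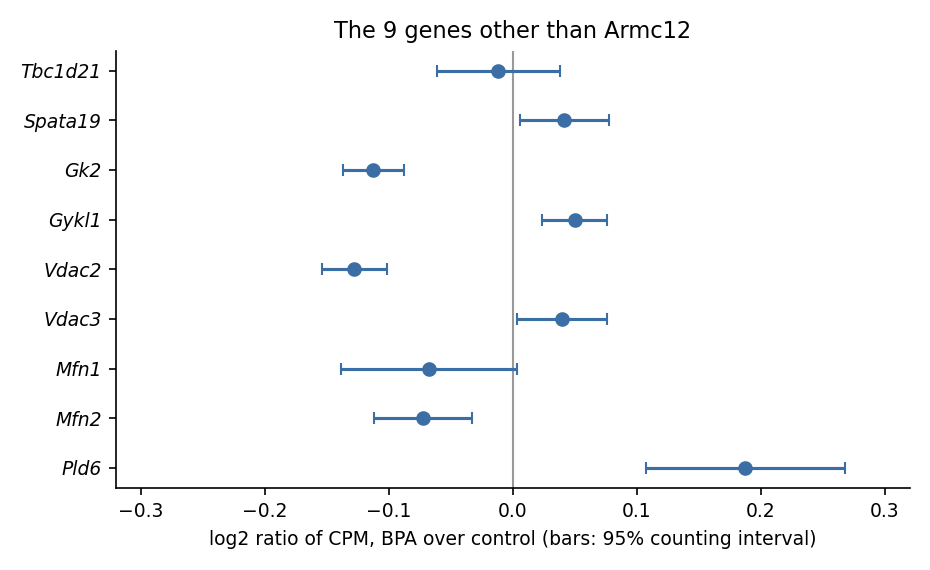
Log2 ratios of CPM, BPA over control, for the 9 genes other than Armc12, without a pseudocount, with bars for the 95% counting interval. All 9 lie between -0.13 and 0.19, and the bars of Tbc1d21 and Mfn1 cross 0.

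Counting error was small for these genes, so 7 of the 9 intervals left out equality, in either direction. Those intervals do not hold the spread between libraries, and genes of like level show how far ratios vary. Among 706 genes with a mean within 2-fold of that of Vdac2, 9.92% had a log2 ratio at least as far from 0, and among 570 genes like Gk2 13.0% did. For Pld6 the share was 14.1% of 3967 genes, and for Tbc1d21 89.7% of 2437. The 5 remaining members lay between 38.3% for Mfn2 and 61.6% for Vdac3.

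**Figure D3:**
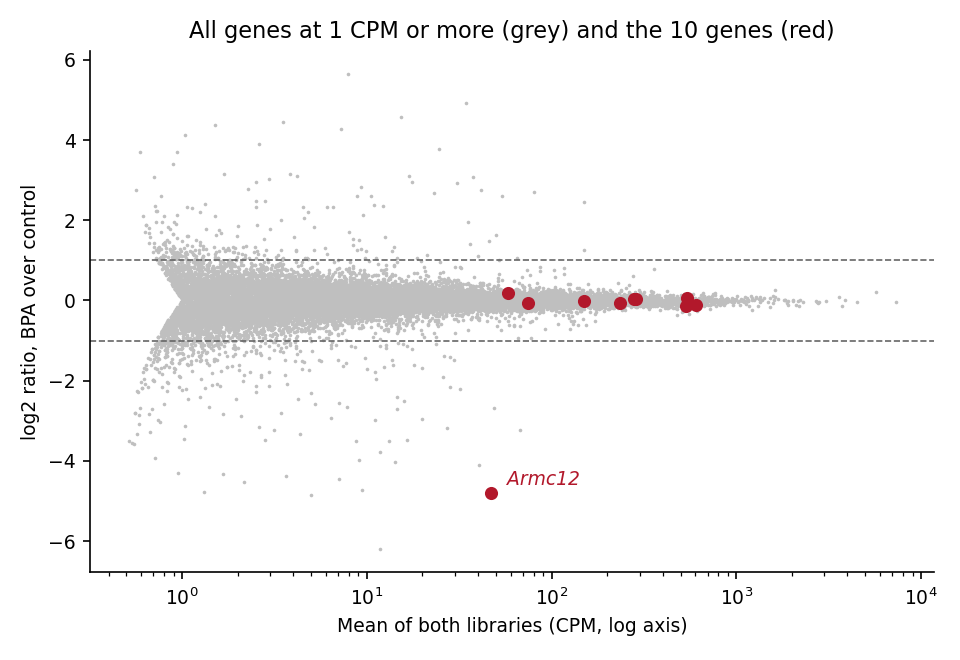
Log2 ratio of BPA over control against the mean of both libraries in CPM (log axis) for 19389 genes in grey, with the 10 genes in red and dashed lines at 2-fold. Armc12 lies at -4.80, and the other 9 red points lie inside the grey band around 0.

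Levels between genes were compared as CPM per kilobase of exon. In the control library the order was Gk2 (337), Gykl1 (287), Spata19 (194), Vdac2 (117), Tbc1d21 (113), Armc12 (56.9), Vdac3 (50.9), Mfn2 (46.2), Pld6 (30.8) and Mfn1 (12.4 CPM per kilobase). The counting intervals of Vdac2 (115.9 to 118.9) and Tbc1d21 (110.7 to 116.3) overlapped, and those of the other neighbours in this order did not. In the BPA library Armc12 was last, at 1.98 CPM per kilobase, below Mfn1 at 11.9. Tbc1d21 (113) and Vdac2 (107) changed places there, and the other members kept their relative order. The length used matters most for Vdac2: over its longest transcript alone it stood at 275 CPM per kilobase in control, and Spata19 at 284.

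Genes related to the members were then examined in 4 lists. Of 20 sperm midpiece and annulus genes, all at the floor, 0 were 2-fold apart, and the median log2 ratio was 0.06. Over all genes at the floor 3.28% were 2-fold apart. Smcp, a cysteine-rich protein of the sheath, stood at 1386 CPM in control and 1445 CPM in BPA. Gpx4, the selenium peroxidase that hardens the sheath, stood at 1369 and 1386 CPM, though 34.7% of its words are shared with other loci. The largest differences within the list were those of the adenine nucleotide carrier Slc25a31, at 1.87 CPM in control against 1.19 CPM in BPA, and of Slc26a8, an anion transporter of the annulus, at 51.9 against 72.6 CPM.

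The 24 genes of mitochondrial fusion, fission and cristae were all at the floor and all within 2-fold, with a median of 0.07. Immt, whose product binds ARMC12, stood at 185 CPM in control and 187 CPM in BPA, a difference of 1.21% with an interval from -1.87 to 4.39%. Mtfr1, a regulator of mitochondrial fission, stood at 325 CPM in each library. Chchd6, a cristae subunit, stood at 174.9 and 174.5 CPM.

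Among 10 relatives of the VDAC, glycerol kinase and phospholipase D members, 8 were at the floor, 7 of these lay within 2-fold, and the median was 0.08. The exception was Pld4, an endolysosomal nuclease of immune cells, at 1.29 CPM in control, on 54 reads, against 0.0441 CPM in BPA, on 2 reads. Without a pseudocount this is a ratio of 29.3, with a counting interval from 7.73 to 248, while the log2 ratio with the pseudocount of 0.1 CPM is -3.27. Pld4 lies near the floor, and 8 macrophage markers, which sum to 88.9 CPM in control and 93.6 CPM in BPA, were all within 2-fold. Gpd2, the mitochondrial glycerol phosphate dehydrogenase, stood at 616 and 675 CPM, and Pld3 at 102 and 106 CPM. Vdac1 stood at 27.9 and 30.2 CPM, far under Vdac2.

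The armadillo repeat family, 16 genes all at the floor, was also within 2-fold, with a median of -0.02. Armc3 stood at 207 CPM in both libraries, and Armc4, needed for docking outer dynein arms, at 45.0 CPM in control and 51.3 CPM in BPA. The family ranged from a log2 ratio of -0.19 for Armcx1 to 0.60 for Armc6. Among the genes of these 4 lists at the floor, Pld4 was thus the only one past 2-fold, and with a floor of 4 CPM it is not counted.

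**Figure D4:**
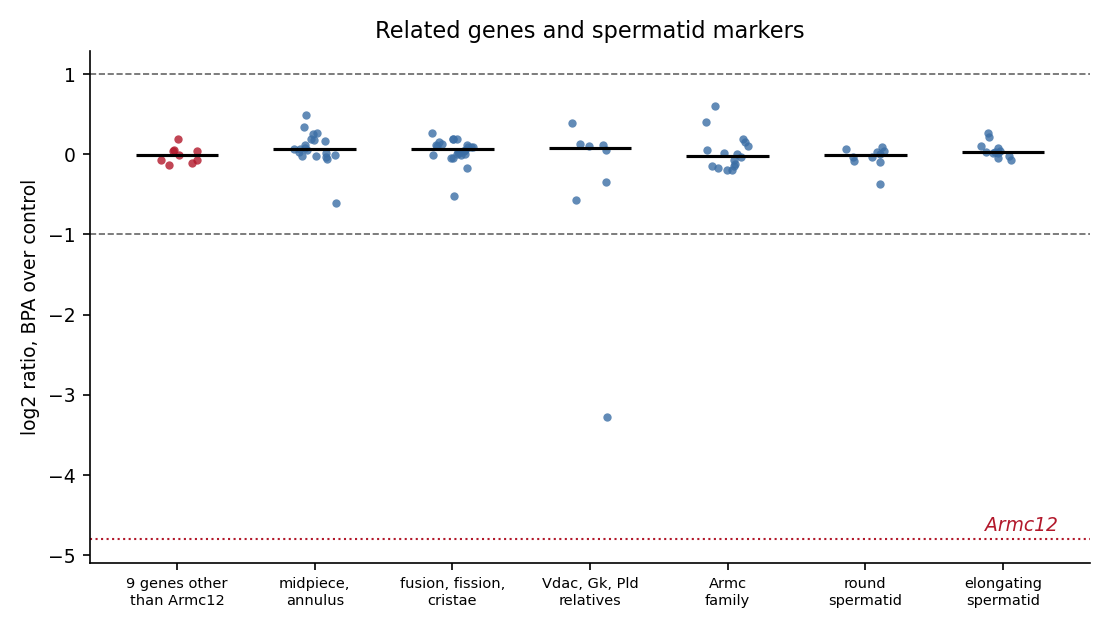
Log2 ratios of BPA over control by gene list, with 1 point a gene, black lines for the medians, dashed lines at 2-fold and a dotted line for Armc12. Pld4, at -3.27, is the only plotted gene outside the dashed lines besides Armc12.

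Genes near Armc12 on chromosome 17 were compared as well. This comparison was made because an earlier account of these data reported clustered differences on chromosome 17, so its counts are a description. Within 1 Mb of the start of Armc12, 37 other genes were at the floor. Of these, 8 (21.6%) were 2-fold apart, 4 higher and 4 lower in the BPA library, against 3.28% of all genes. Around the 9 other members the same count was 2 of 193 genes (1.04%), Hcn4 near Tbc1d21 and Wnt9a near Pld6, both close to 1 CPM in the higher library. By gene start, the differing neighbours lay mostly upstream of Armc12, 6 of 15 there against 2 of 22 downstream. The 6 include Gm41506, whose span overlaps that of Armc12 and which was at 1.03 CPM in its higher library.

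The lower neighbours were Snrpc, a U1 snRNP protein, 691 kb away at 76.8 CPM in control and 4.41 CPM in BPA, Zfp523, a zinc finger gene, 354 kb away at 24.7 and 4.58 CPM, Pacsin1, a membrane-bending adaptor, at 2.25 and 0.419 CPM, and Gm41506. The higher neighbours were Nudt3, a diphosphoinositol phosphatase, at 6.10 CPM in control and 39.8 CPM in BPA, the ribosomal protein gene Rpl10a, at 4.26 and 12.6 CPM, the SR protein kinase Srpk1, 56.8 kb away at 42.3 and 87.5 CPM, and Cpne5 at 4.62 and 9.39 CPM. Of Rpl10a 20.8% of the words occur at other loci, and exons of Nudt3, Zfp523, Rpl10a and Cpne5 overlap another gene. Slc26a8 of the annulus list, 107 kb from Armc12, is another gene of this stretch. Genes in the stretch thus differed in both directions, and with 1 library a group a local difference and the treatment cannot be told apart.

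**Figure D5:**
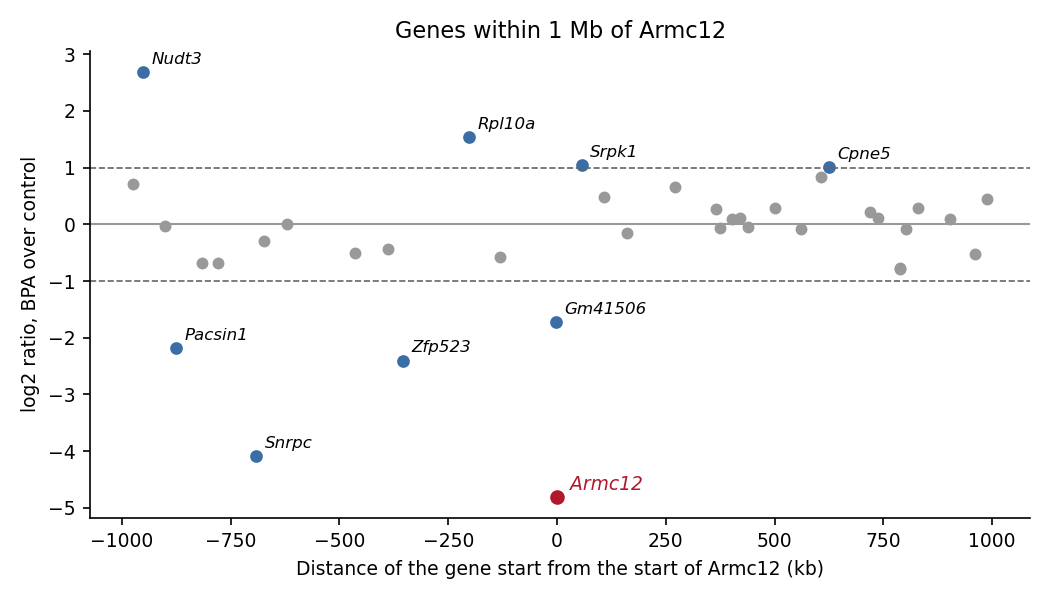
Log2 ratio of BPA over control against the distance of each gene's start from that of Armc12 in kb, for 37 neighbours at the floor. Blue points, named, are 2-fold apart, 4 above and 4 below, and Armc12 is red at -4.80.

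Genes with Gm number, Rik, LOC or clone symbols were left out of a search for the log2 ratios nearest to that of Armc12. Among the others averaging at least 4 CPM, the 5 nearest over the 2 libraries were Pitpnm1 (-4.84), Znrd1 (-4.72), Apip (-4.45), Snrpc (-4.09) and Neurl4 (-4.02). Their control levels were 9.71, 18.2, 13.6, 76.8 and 27.0 CPM, all below that of Armc12. Their BPA levels were 0.242, 0.595, 0.529, 4.41 and 1.56 CPM, so the pseudocount bears on the ratios of Pitpnm1, Znrd1 and Apip. Without it the 5 log2 ratios were -5.32, -4.93, -4.69, -4.12 and -4.11, against -4.85 for Armc12. Snrpc is the neighbour named above, and Znrd1 also lies on chromosome 17, starting at 36954358, outside the 1 Mb around Armc12. The share of all genes on that chromosome was not counted, so nothing is read from this.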

How the data were processed

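RNA from testes of balb/c mice was sequenced in 2 libraries. Per the labels' protocols, Trizol RNA was enriched with oligo(dT) beads and reverse transcribed with random hexamers, with no strand-marking step described. Per the submitters' processing notes, the tools were HISAT2 2.0.4 and HTSeq 0.6.1 on mm10, with annotation, strand setting and the statistical program not given in the sources used here. Headers name the deposited values read counts, but they are CPM, with values under 1 written as 0. The authors also deposited, per gene, a p-value with its q-value and a log2 fold change.

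In each library the listed values step by a constant amount, taken as 1 read, with gaps of at most 4.66e-09 of it. The deposited fold changes gave 1404 values written as 0, none of a member. Count models were not used. Genes reaching 1 CPM in either library were compared by a log2 ratio with a pseudocount of 0.1 CPM and a 2-fold rule, in Python 3.11.15 with SciPy 1.17.1, checked on simulated reads. Symbols came from RefSeq for GRCm38 (40269 of 41571 numeric IDs matched), exon lengths, overlaps and 50-base words from GENCODE for GRCm38. Of the related lists, genes 2-fold apart and the 2 most abundant per kilobase were named, with others named after their values were seen (Immt, Vdac1, Gk, Slc25a31, Slc26a8, Armc6 and Armcx1). Of the neighbours, those 2-fold apart were named. Marker lists of germ, Sertoli, Leydig, adipose, macrophage and epididymis cells were also read. The members, the lists and the comparison of neighbours were chosen with earlier results of these data known. Alternatives covered pseudocount, scaling, floor, fold, zeros, distance and gene length.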

Additional observations from a re-analysis of the deposited data

How the results depend on the processing

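No paired analysis was possible because each group has 1 library, and for the same reason no replicate could be left out. The counts of 1 member lower and 0 higher held under all 7 alternatives run for them. The log2 ratios of the 9 members other than Armc12 stayed between -0.13 and 0.19 in all 36 alternative values, and 0 values reversed. Most of these settings could hardly move a member, so this is a weak check. No member had a value written as 0, and none was near 4 CPM in its higher library. Scaling shifted all ratios almost alike, by 0.00283 or 0.00425 in log2. The log2 ratio of Armc12 became -4.46 with a pseudocount of 1 CPM. Over all genes, the 256 higher and 379 lower became 82 and 123 with a pseudocount of 1 CPM, 686 and 937 with listed zeros as 0, 80 and 103 with a floor of 4 CPM, 828 and 1042 at 1.5-fold, and 55 and 85 at 4-fold. At 1.5-fold 1 midpiece and annulus gene and 1 Armc family gene were apart, with listed zeros as 0 1 fusion, fission and cristae gene was, and with a floor of 4 CPM 0 of the VDAC, glycerol kinase and phospholipase D relatives were. The 8 neighbours of Armc12 became 6 with a pseudocount of 1 CPM and 6 with a floor of 4 CPM. They became 10 with listed zeros as 0, 10 within 2 Mb, 15 at 1.5-fold, 4 at 4-fold and 4 within 0.5 Mb. The numbers of genes compared under these settings are not given, so these are counts and not shares. With the longest transcript as the length, levels per kilobase in control were 69.5 for Armc12, 118 for Tbc1d21, 284 for Spata19, 275 for Vdac2, 66.1 for Vdac3, 16.7 for Mfn1 and 55.3 CPM for Mfn2. Depth does not limit these 9 members, each on 2261 reads or more, but 1 library a group does.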
